A study of Mus musculus with 37 samples.

Results

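The plasminogen activators Plau and Plat, the receptor Plaur and the serpins Serpine2 and Serpinf1 were followed across 37 RNA-seq libraries of cultured mouse bone marrow (BM) and osteosarcoma cells. They are 5 of the 51123 gene rows of the deposited table, each found by its mouse Ensembl ID, and each set of libraries was compared with the control libraries of that set. These genes were chosen by their levels in these libraries, with differences from control already known, so their values against control are given as a description, without a test. Their differences between knockout groups were tested in a fit over all genes.

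Osx1-Cre, a Cre expressed in Osterix-positive osteoblast progenitors, removed Trp53 alone (SKO) or Trp53 together with Wwox (DKO), and a Rosa26-LSL-tdTomato reporter marked the cells that had carried Cre. BM was taken from young mice without tumors (yBM) and from mice with tumors (BMT), and tumor cells were taken as well. In the methods of the study, RNA was prepared from cultures after 3 passages, when tdTomato-positive cells dominated. Those methods cover 16 samples, the number of libraries in set 1, and do not describe set 2. Set 1 held 4 control BM, 6 DKO yBM (3 from mice of 1.5 months and 3 from mice of 4 months), 3 DKO BMT and 3 DKO tumor libraries. Set 2 had 7 groups of 3 libraries, namely control BM and the yBM, BMT and tumor cells of either genotype. The control mice were wild type, described in one place as Cre-negative and in another as Cre-positive, and ages were given only for the DKO yBM mice of set 1.

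Plau encodes the urokinase-type and Plat the tissue-type plasminogen activator, serine proteases that cut plasminogen into plasmin, the main enzyme of fibrin breakdown and an activator of other matrix-degrading enzymes. Plaur encodes the receptor that holds urokinase at the cell surface. Serpine2, also called protease nexin-1, inhibits thrombin, urokinase and tissue plasminogen activator, whereas Serpinf1 (pigment epithelium-derived factor) is a secreted serpin without inhibitory activity, known for limiting vessel growth and for its role in bone matrix mineralization.

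Levels are given in TPM, a transcript share that is scaled for transcript length and for the library total, so that levels of different genes can be set side by side. TPM keep no record of sequencing depth, which is therefore unknown here. The libraries held between 11001 and 13249 genes at 1 TPM or more, and mitochondrial transcripts took from 5.32% to 32.5% of the total. Trp53 lay below every control library of its set in all 9 knockout groups, but the libraries labelled DKO BMT 2 and 3 of set 1 still had 63.3% and 72.1% of its mean in control BM. Wwox went against the label, that is, lay above 50% of the control mean in a library labelled DKO or below it in a library labelled SKO, in 12 libraries: DKO yBM 2 to 6, DKO BMT 1 and DKO tumor 1 of set 1, and DKO tumor 1 to 3 and SKO BMT 2 and 3 of set 2. Control libraries of set 1 themselves ranged from 32.0% to 147.7% of their mean Wwox, 0.92 to 4.26 TPM. In set 1 the 50% limit therefore does not set intact libraries clearly apart. Those of set 2 ranged from 82.8% to 113%. In the 3 libraries labelled DKO tumor of set 2 Wwox was at 5.23, 4.78 and 4.26 TPM, above all 3 control libraries. Group names below are therefore those of the labels.

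Of the 11 listed osteoblast markers, 6 to 11 were at 1 TPM or more in each library, with Col1a1 at 274.2 TPM or more. Runx2, Alpl, Spp1, Col1a1, Col1a2 and Dlx5 reached 1 TPM in all 37 libraries. The others did not, with Sp7 reaching it in 31, Ibsp in 29, Bglap in 23, Phex in 9 and Dmp1 in 6. The 22 leukocyte markers differed between groups. In set 1 their mean log2(TPM + 1) was 5.96 to 8.10 in control BM, 3.96 to 7.84 in DKO yBM and 6.70 to 7.48 in DKO BMT, while DKO tumor 1, 2 and 3 were at 5.94, 0.45 and 0.67. In set 2 it was 8.39 to 8.72 in control BM and 0.27 to 0.89 in 16 of the 18 knockout libraries, the others being SKO BMT 2 at 5.27 and DKO BMT 2 at 4.45. On the 10 mesenchymal stromal markers the same measure ran from 3.56 in SKO tumor 2 to 6.41 in SKO tumor 3 of set 2. The next lowest were DKO BMT 3 at 3.97 and SKO BMT 3 at 3.99, also of set 2. In these bulk libraries fewer cells of a type and less RNA per cell cannot be told apart.

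Serpine2 was lower on average in each of the 9 knockout groups than in the control BM of the same set, and its libraries lay below all control libraries in 8 of them. Its RefSeq promoter is shown because Serpine2 is the gene of the 5 with the widest range of levels in fold between its lowest and highest library. It covers the 250 bases before the start site in GRCm38.p6, chr1:79858666-79858915, minus strand, written in the direction of transcription. Capitals mark GC boxes, GGGCGG on either strand.

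Serpine2: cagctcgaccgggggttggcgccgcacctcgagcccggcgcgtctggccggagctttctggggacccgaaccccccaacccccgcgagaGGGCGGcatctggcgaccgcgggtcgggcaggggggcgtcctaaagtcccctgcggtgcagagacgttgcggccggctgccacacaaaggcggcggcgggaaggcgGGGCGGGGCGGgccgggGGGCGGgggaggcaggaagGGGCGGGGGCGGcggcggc

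The stretch was 78.8% G and C, against a median of 52.4% over 32536 promoter stretches of the same length. It held 6 GC boxes, of which those that begin at -55 and -50 from the start site share a base. A GC box was present in 33% of those stretches. An E-box (CACGTG), an AP-1 motif (TGANTCA) and a TATA box (TATAAA) were not found in this window, and they were present in 6.04%, 6.73% and 12.3% of all stretches. The same window of Plaur held 3 GC boxes and 1 AP-1 motif, and that of Serpinf1 held none of the 4 motifs. Plau and Plat have no entry in the promoter table used here.

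In set 1, control BM held 368, 68.9, 282 and 346 TPM of Serpine2. The 6 DKO yBM libraries ranged from 11.5 to 42.6 TPM with a median of 18.3 TPM, and DKO BMT held 32.3, 30.4 and 31.9 TPM. DKO tumor libraries 1, 2 and 3 held 132, 8.26 and 0.882 TPM. Control library 2, at 68.9 TPM, stood well below the other control libraries but above every DKO yBM and DKO BMT library, while DKO tumor 1 lay between the control values.

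The set 1 means were 266.1 ± 136.3 TPM in control BM (SD, n = 4), 23.2 ± 11.6 TPM in DKO yBM (n = 6), 31.5 ± 0.989 TPM in DKO BMT (n = 3) and 47.0 ± 73.6 TPM in DKO tumor (n = 3). DKO yBM was thus at 8.73% and DKO BMT at 11.9% of the control mean. On the scale of log2(TPM + 1), the difference from control was -3.34 (SE 0.84) in DKO yBM, -2.79 (SE 0.99) in DKO BMT and -4.08 (SE 0.99) in DKO tumor. The tumor value is the furthest from 0 because DKO tumor 3 was near 0 TPM, although its mean in TPM is the highest of the knockout groups.

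In set 2, control BM held 49.5, 298 and 454 TPM. SKO yBM held 5.42, 1.69 and 2.21 TPM, DKO yBM held 2.33, 5.52 and 0.555 TPM, and SKO tumor held 2.06, 2.12 and 6.60 TPM. DKO tumor held 31.9, 2.45 and 3.13 TPM. SKO BMT held 46.6, 14.0 and 0.132 TPM and DKO BMT held 6, 39.2 and 0.371 TPM. All 18 knockout libraries lay below the lowest control library, but SKO BMT 1 came within 3 TPM of it.

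The log2 differences from control in set 2 ran from -4.35 in SKO BMT to -5.88 in DKO yBM, each with an SE of 1.29. The group means as shares of the control mean were 1.16% in SKO yBM, 1.05% in DKO yBM, 1.34% in SKO tumor, 4.68% in DKO tumor, 5.69% in DKO BMT and 7.57% in SKO BMT. In set 2 only control BM was separate from its neighbor in the order of group means, whose libraries overlapped at every other step. In set 1 the libraries of all neighbors in that order overlapped, control BM and DKO tumor included.

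Lying below all control libraries was not rare among the genes tested. The share of all tested genes that did so was 11.1% in DKO yBM, 9.64% in DKO BMT and 10.6% in DKO tumor of set 1. In set 2 it was 17.2% for SKO and 20.2% for DKO in yBM, 16.8% and 13.5% in BMT, and 15.5% and 17.9% in tumor.

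**Figure D1:**
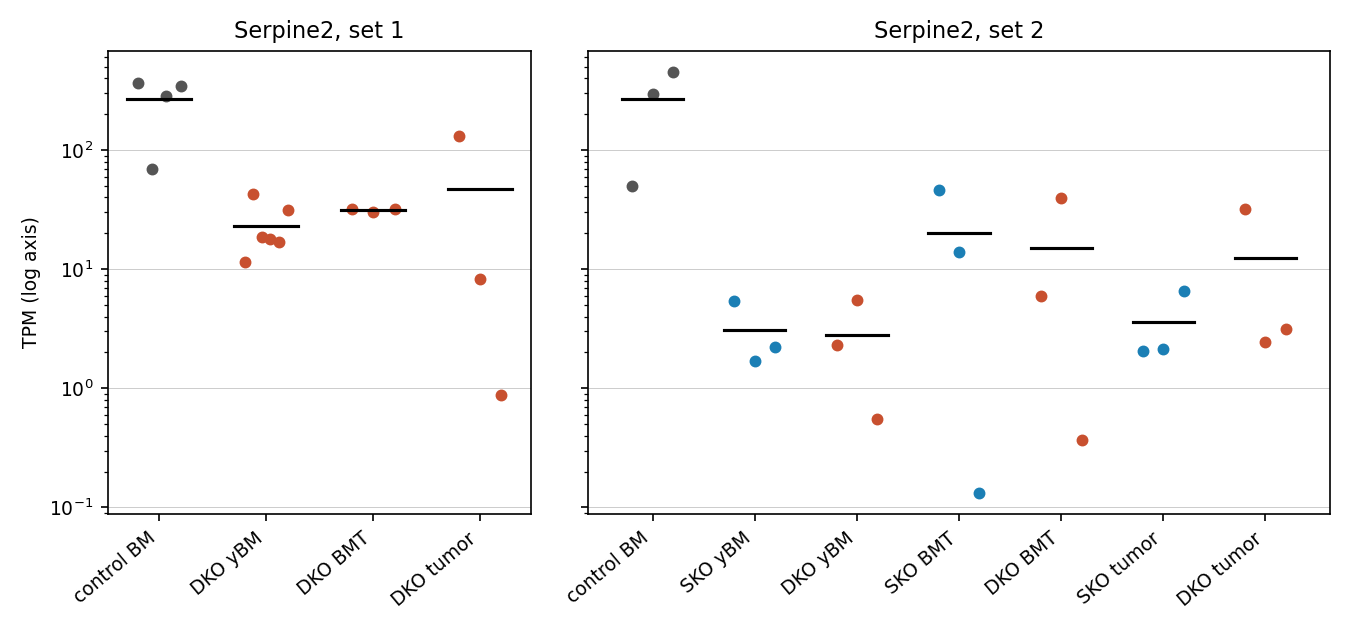
Serpine2 in each library (points) and group means (bars) in TPM on a log axis, with set 1 at left and set 2 at right. The knockout libraries lie below every control library apart from DKO tumor 1 of set 1 at 132 TPM.

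At the level of groups, leukocyte markers moved with the Serpine2 difference in set 2 and in the tumors of set 1. Few were called in the other groups of set 1. Of the 22 markers, 1 was called lower in DKO yBM of set 1, 0 in DKO BMT, 13 in DKO tumor, 21 in SKO BMT of set 2 and 22 in each of the other 5 knockout groups of set 2 (limma, adjusted p under 0.05). DKO BMT of set 1 had leukocyte levels within the range of control BM and Serpine2 at 30.4 to 32.3 TPM. DKO tumor 2 and 3 had the lowest leukocyte levels of set 1 and also its lowest Serpine2, at 8.26 and 0.882 TPM. In set 2, SKO BMT 2 and DKO BMT 2 had the highest leukocyte levels of the knockout libraries, with Serpine2 at 14.0 and 39.2 TPM, among the higher knockout values. Single libraries also went the other way. SKO BMT 1 had the highest Serpine2 of the set 2 knockout libraries, 46.6 TPM, at a leukocyte level of 0.89. In set 1, DKO yBM 1 had the highest leukocyte level of its group, 7.84, and its lowest Serpine2, 11.5 TPM. Control 1 and 2 of set 1 held 368 and 68.9 TPM at leukocyte levels of 6.07 and 5.96.

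With the leukocyte level as a covariate, the Serpine2 difference in set 1 was -2.99 in DKO yBM, -2.85 in DKO BMT and -1.30 in DKO tumor. In set 2 the same adjustment left -0.78 for SKO and -1.05 for DKO in yBM, -0.51 and -0.60 in BMT and -0.69 in SKO tumor, and turned that of DKO tumor to 0.24. In set 2 no knockout library reached the leukocyte level of control BM, so the adjusted values of that set extrapolate, and there the genotype and the leukocyte content of the cultures cannot be told apart. Without the libraries whose Wwox went against the label, the difference was -4.16 in DKO yBM, -2.80 in DKO BMT and -5.75 in DKO tumor of set 1 and -1.999 in SKO BMT of set 2. The first of these rests on DKO yBM 1 alone, which had the lowest Serpine2 of its group, and the last on SKO BMT 1 alone, which had the highest, while DKO BMT and DKO tumor kept libraries 2 and 3.

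**Figure D2:**
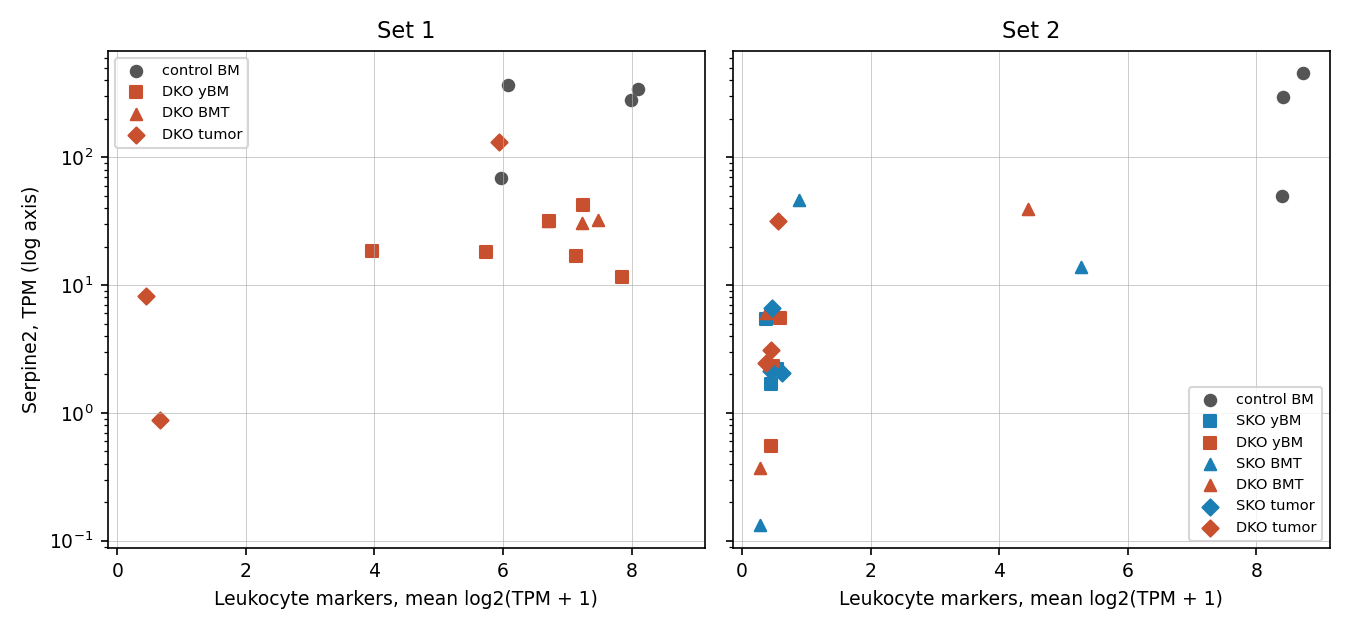
Serpine2 in TPM (log axis) against the mean log2(TPM + 1) of 22 leukocyte markers, 1 point for each library. In set 1 the DKO yBM and DKO BMT libraries, at leukocyte levels from 3.96 to 7.84, sit below the control libraries, at 5.96 to 8.10. In set 2 the knockout libraries and control BM do not share a leukocyte level.

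Among the knockout groups Serpine2 did not differ beyond the spread between libraries. The log2 difference of DKO from SKO was -0.24 in yBM (95% interval -2.95 to 2.47), -0.35 in BMT (-3.06 to 2.35) and 0.90 in tumor (-1.81 to 3.61), and these intervals leave room for differences of several fold either way. Of the pairs of groups in set 1, DKO tumor and DKO BMT were furthest apart, at -1.30 (-3.56 to 0.97). Without DKO tumor 1 that difference became -2.96 with an adjusted p of 0.0458 in the limma fit, so 1 library decided this call. DKO yBM from mice of 4 months and of 1.5 months differed by 0.03 (-2.33 to 2.38).

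Plau was present in every library, from 3.03 to 83.3 TPM. In set 1 control BM held 83.3, 34.7, 46.6 and 26.1 TPM. DKO yBM ranged from 40.05 to 69.3 TPM with a median of 44.4 TPM, DKO BMT held 37.0, 48.9 and 70.2 TPM, and DKO tumor held 55.4, 25.5 and 56.6 TPM. The group means lay between 45.9 and 52.0 TPM, closer to each other than the libraries of any group, and every pair of neighbors overlapped.

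In set 2 control BM held 23.9, 53.8 and 48.8 TPM of Plau, SKO yBM held 30.1, 51.1 and 32.5 TPM and DKO yBM held 22.2, 19.1 and 22.4 TPM. SKO BMT held 70.8, 28.8 and 5.51 TPM, DKO BMT held 26.1, 48.6 and 3.03 TPM, SKO tumor held 33.1, 6.05 and 24.5 TPM and DKO tumor held 54.4, 45.4 and 18.1 TPM. The libraries lowest in Plau, DKO BMT 3, SKO BMT 3 and SKO tumor 2, were also lowest in mesenchymal stromal markers. SKO tumor 3, the highest in those markers, held 24.5 TPM. A relation of Plau to stromal content was not tested. DKO yBM was the only knockout group whose Plau lay wholly below control BM, at 50.4% of the control mean, as did 20.2% of all genes tested in that comparison. The log2 difference of DKO from SKO was 1.00 in tumor (95% interval -0.79 to 2.80), -0.46 in BMT (-2.25 to 1.34) and -0.77 in yBM (-2.57 to 1.03).

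Plat ranged from 1.18 to 62.8 TPM. In set 1 control BM held 8.58, 48.1, 1.18 and 2.50 TPM, a span of 40.6-fold. DKO yBM ranged from 1.67 to 21.7 TPM with a median of 5.71 TPM, DKO BMT held 13.8, 10.7 and 16.5 TPM, and DKO tumor held 44.1, 23.3 and 10.4 TPM. DKO tumor had the highest mean and DKO yBM the lowest, with a log2 difference of 1.74 (95% interval -0.10 to 3.58) and an adjusted p of 0.341 in the limma fit.

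In set 2 control BM held 14.7, 9.88 and 12.7 TPM of Plat, SKO yBM held 33.7, 9.08 and 11.2 TPM and DKO yBM held 16.03, 16.8 and 19.8 TPM. SKO BMT held 21.9, 22.8 and 13.8 TPM, DKO BMT held 32.5, 27.5 and 1.77 TPM, SKO tumor held 8.10, 13.0 and 62.8 TPM and DKO tumor held 26.1, 19.6 and 5.05 TPM. DKO yBM lay wholly above control BM, at 141.3% of the control mean, as did 24.9% of all genes tested in that comparison. DKO and SKO differed by 0.19 in yBM (95% interval -1.56 to 1.93), -0.54 in BMT (-2.28 to 1.21) and -0.42 in tumor (-2.17 to 1.32).

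Plaur, the urokinase receptor, was present in every library, from 4.46 to 77.7 TPM. In set 1 its group means were close together. Control BM held 68.8, 27.2, 22.3 and 12.4 TPM, DKO yBM ranged from 22.5 to 31.4 TPM with a median of 29.0 TPM, DKO BMT held 18.0, 39.3 and 27.2 TPM and DKO tumor held 23.7, 20.3 and 37.6 TPM. The 3 knockout means, from 27.2 to 28.2 TPM, were closer together than the libraries within any group.

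In set 2 the 3 DKO groups had the highest mean Plaur and the 3 SKO groups the lowest, with control BM between them. Control BM held 16.9, 53.5 and 46.3 TPM, SKO yBM held 27.5, 39.9 and 33.5 TPM and DKO yBM held 48.7, 36.1 and 51.4 TPM. SKO BMT held 22.2, 41.2 and 12.6 TPM, against 38.3, 73.5 and 57.8 TPM in DKO BMT. SKO tumor held 32.9, 4.46 and 12.9 TPM, against 32.3, 77.7 and 37.8 TPM in DKO tumor. The libraries of SKO and DKO overlapped in each of the 3 cell states.

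The log2 difference of DKO from SKO in Plaur was 1.77 in tumor (95% interval 0.56 to 2.98), with an adjusted p of 0.585 over all genes in the limma fit. In BMT the difference was 1.23 (0.02 to 2.44) with an adjusted p of 1, and in yBM it was 0.42 (-0.79 to 1.63). SKO tumor differed from SKO yBM by -1.32 (-2.53 to -0.12) with an adjusted p of 0.614. The tumor, BMT and SKO values were under 0.05 before adjustment, and none passed it. SKO tumor 2, the lowest of all libraries in Plaur, had 11001 genes at 1 TPM or more, the fewest of all. Mitochondrial transcripts took 26.8% of its total. Leaving out single libraries gave 1.11 to 2.42 for the tumor contrast and 0.83 to 1.645 for BMT. For SKO tumor against SKO yBM it gave -1.98 to -0.66. Whether the difference of DKO from SKO changed between yBM and tumor was tested as well, giving 1.35 (-0.36 to 3.06) with an adjusted p of 0.869. The 3 libraries labelled DKO tumor had Wwox at control levels or above, and SKO BMT 2 and 3 had Wwox at 0.102 and 0.0857 TPM, so these Plaur contrasts compare groups by label. Without those libraries, the difference of DKO BMT from the remaining SKO BMT library in Plaur was 1.26, and the tumor contrast could not be made.

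Serpinf1 was by far the most abundant of the 5 genes, from 308.5 to 3353 TPM, ranking between 30 and 441 among all genes of a library. In set 1 control BM held 2026, 3353, 783 and 928 TPM. DKO yBM ranged from 566 to 1300 TPM with a median of 861 TPM, DKO BMT held 2844, 949 and 1347 TPM and DKO tumor held 2204, 2479 and 1357 TPM.

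In set 2 control BM held 722, 1084 and 1196 TPM of Serpinf1, SKO yBM held 1672, 1577 and 1030 TPM and DKO yBM held 1038, 1137 and 309 TPM. SKO BMT held 2397, 2468 and 691 TPM, DKO BMT held 1795, 1515 and 434 TPM, SKO tumor held 1670, 577 and 2834 TPM and DKO tumor held 3150, 1387 and 2029 TPM. DKO tumor was the only knockout group wholly above control BM, at 218.7% of the control mean, as were 21.8% of all genes tested in that comparison.

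In both sets mean Serpinf1 was higher in DKO tumor than in DKO yBM, under 0.05 before adjustment over all genes and not after it. The log2 difference was 1.16 (95% interval 0.21 to 2.12) in set 1, with an adjusted p of 0.255 in the limma fit. In set 2 it was 1.53 (0.15 to 2.92), with an adjusted p of 0.898. In set 1 the leukocyte level was lower in DKO tumor 2 and 3 than in any DKO yBM library, and with it as a covariate the Serpinf1 difference was 0.64. In set 2 both groups were at 0.38 to 0.59 in leukocyte level, and the covariate gave 1.54. SKO tumor and SKO yBM differed by 0.00 (-1.39 to 1.39), and the test of whether the change from yBM to tumor differed between DKO and SKO gave 1.53 (-0.43 to 3.49) with an adjusted p of 0.869.

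**Figure D3:**
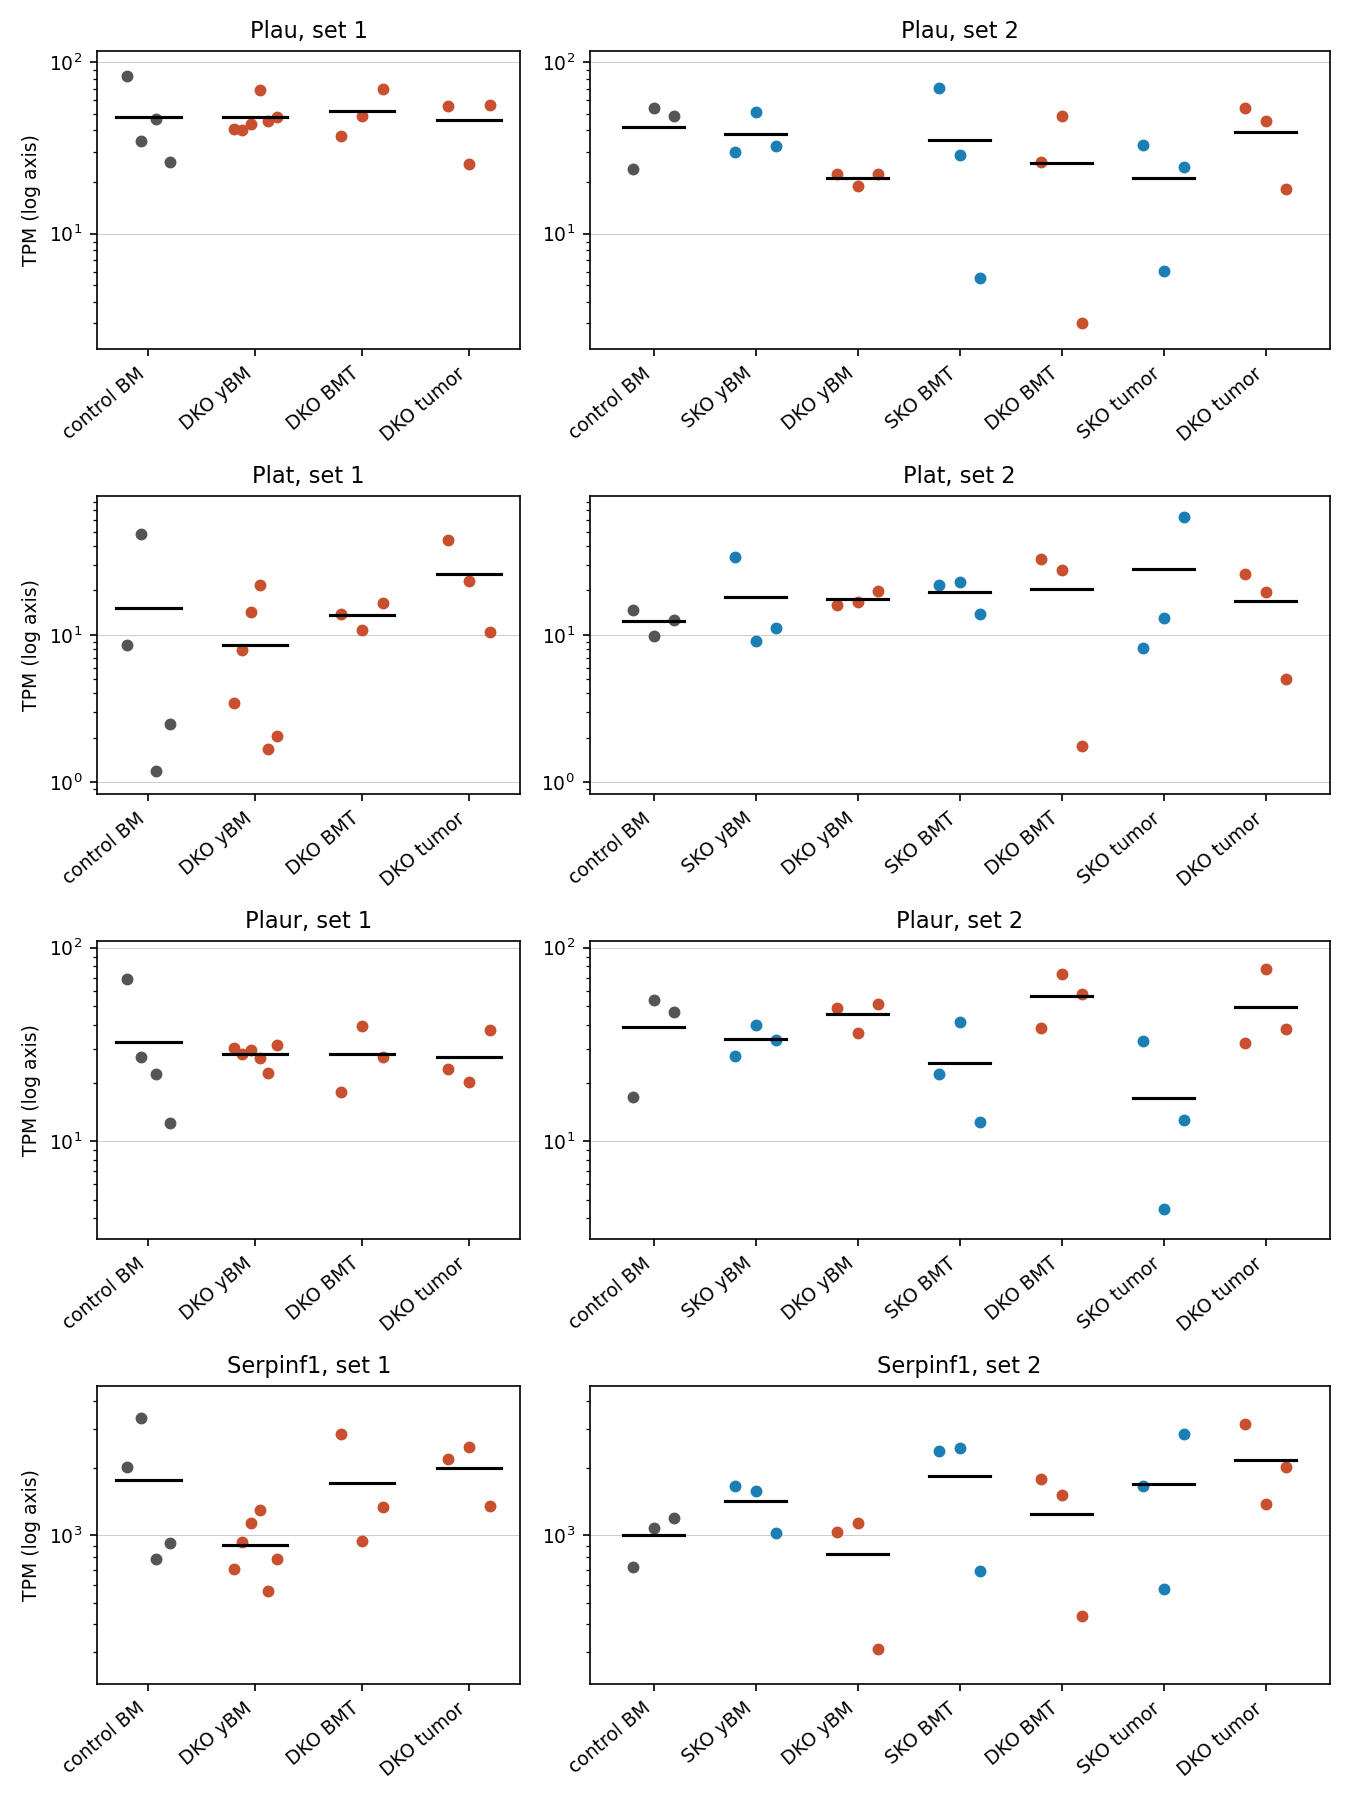
Plau, Plat, Plaur and Serpinf1 in each library (points) and group means (bars) in TPM on log axes, 1 row for each gene, with set 1 at left and set 2 at right. Apart from DKO yBM of set 2 for Plau and Plat and DKO tumor of set 2 for Serpinf1, each knockout group overlaps the control libraries of its set.

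**Figure D4:**
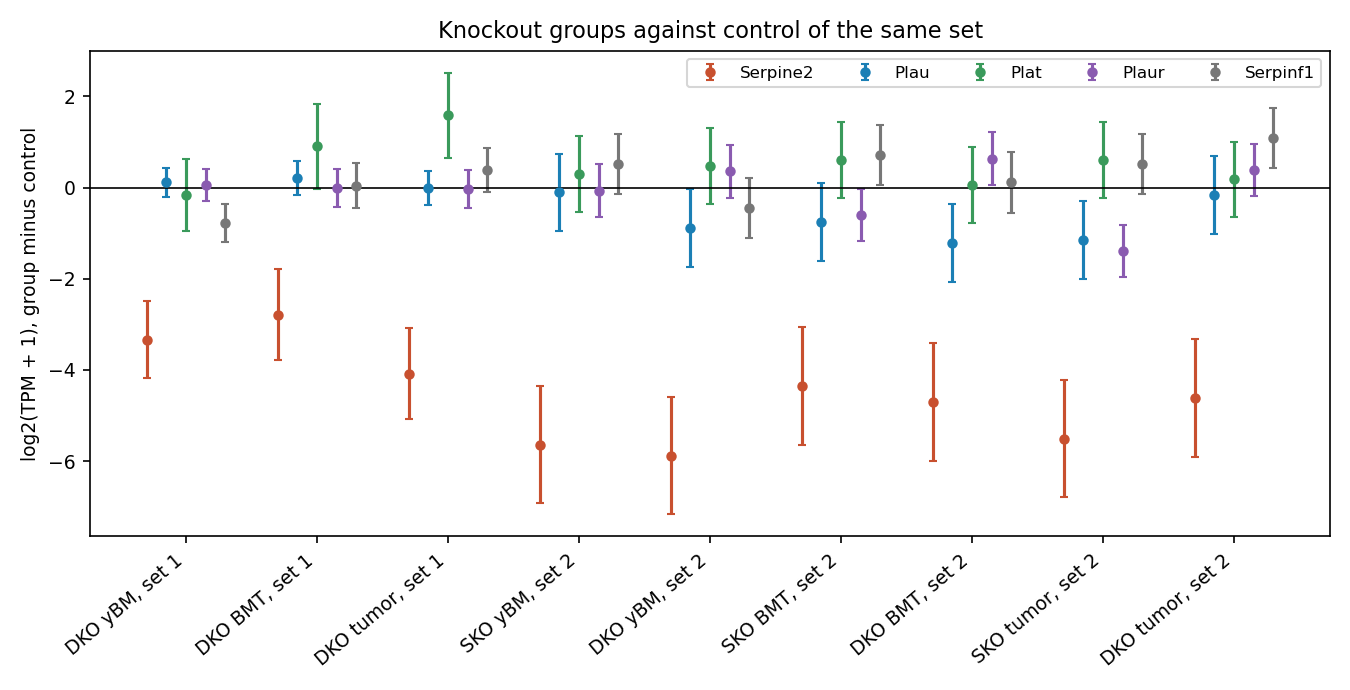
Difference of each knockout group from control BM of its set in log2(TPM + 1), with standard errors as bars, for the 5 genes. Serpine2 lies between -2.79 and -5.88 in all 9 groups, whereas the other 4 genes lie on either side of 0.

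Against control BM, the log2 differences of Plau, Plat, Plaur and Serpinf1 ran from -1.39, for Plaur in SKO tumor, to 1.58, for Plat in DKO tumor of set 1. With the leukocyte level as a covariate the 24 differences of these genes in set 2 were all above 0, from 0.46 to 2.92. These too extrapolate between leukocyte levels that control and knockout libraries did not share, and nothing is read from them.

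Between knockout groups, 0 of the 5 genes were called in any of the 12 contrasts of groups, the contrast of ages or the 3 contrasts of DKO minus SKO between cell states (limma, adjusted p under 0.05). Of all values of the 5 genes in these contrasts, 5 were under 0.05 before adjustment, 3 of Plaur and 2 of Serpinf1. They are given without the share of all genes under 0.05, so nothing is read from their number. Few genes of any kind were called in these contrasts. In set 1 the share of all tested genes called was 0% for DKO BMT against DKO yBM, 0.132% for DKO tumor against DKO yBM, 0.257% for DKO tumor against DKO BMT and 0.00694% for the ages. In set 2 it was 0.0207% for DKO against SKO in yBM and 0% in BMT and in tumor. It was 0.0207% for SKO BMT against SKO yBM, 0% for SKO tumor against SKO yBM and 0.083% for SKO tumor against SKO BMT. It was 0.00692% for DKO BMT against DKO yBM, 0.104% for DKO tumor against DKO yBM, 0.083% for DKO tumor against DKO BMT and 0.0138%, 0.0138% and 0% for the contrasts of DKO minus SKO.

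**Figure D5:**
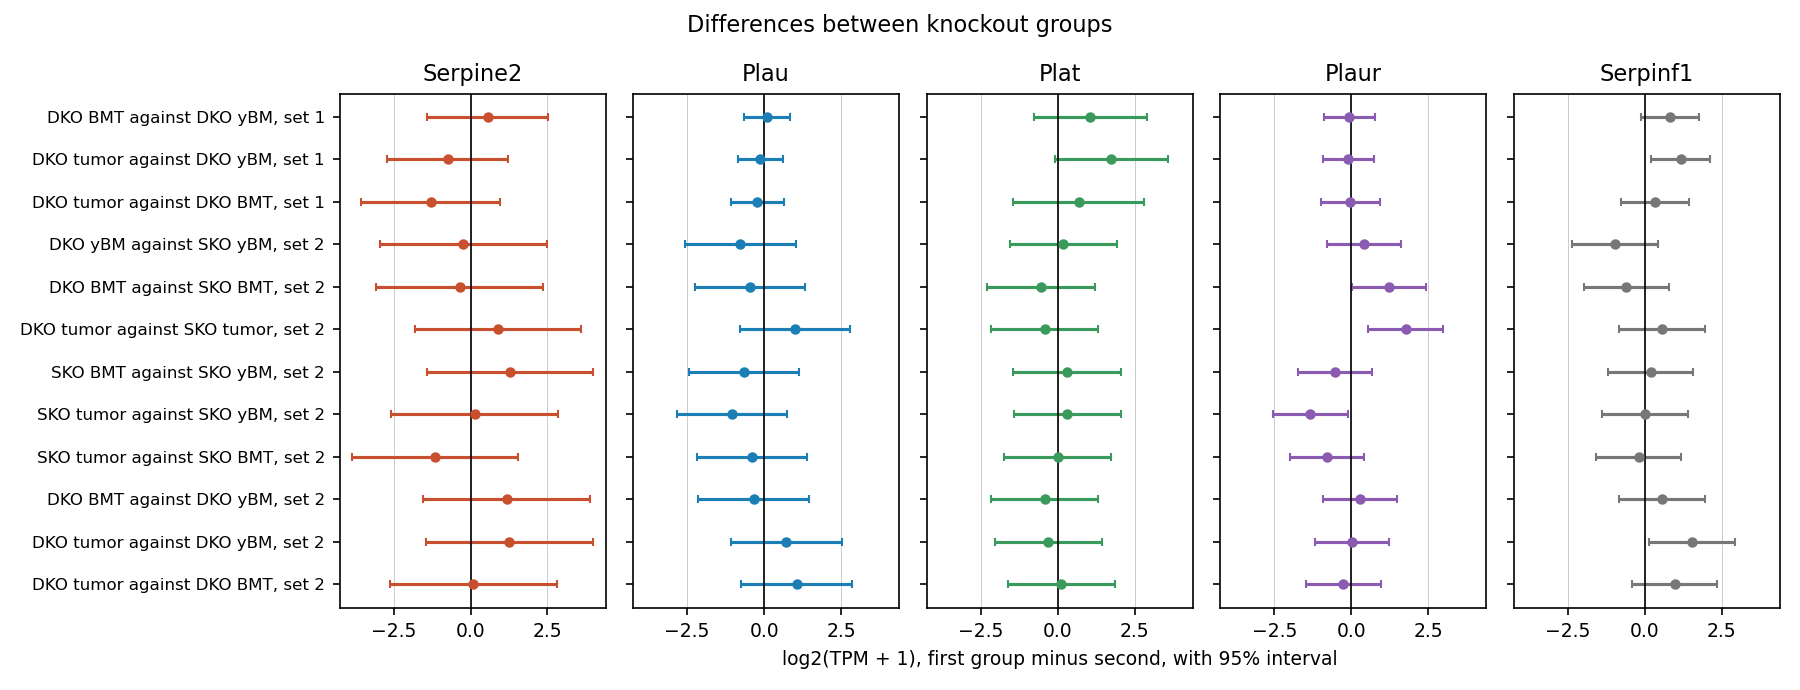
Differences between knockout groups in log2(TPM + 1), first group minus second, with 95% intervals, for the 5 genes. Most intervals span 0, and those that do not are Plaur for DKO against SKO in BMT and in tumor and for SKO tumor against SKO yBM, and Serpinf1 for DKO tumor against DKO yBM in both sets. The intervals are not adjusted for the number of genes or contrasts, and none of these differences was called.

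The other genes of the plasmin system were mostly not called against control. This list and those that follow were chosen with earlier results of these data known, so their calls and p-values against control are descriptive. Plasminogen itself (Plg) was at most 0.0592 TPM in any library. Of 25 listed genes, 17 passed the filter on low values in set 1 and 18 in set 2. Over the 9 comparisons with control, 3 values were called, 1 higher and 2 lower, and 22 were under 0.05 before adjustment. The 22 are given without the share of all genes, so nothing is read from them. The list's median log2 difference ran from -0.46 to 0.40, against -0.22 to 0.24 for all genes tested.

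The calls were those of Hgf and Eno1. Hgf, a growth factor related to plasminogen in sequence, fell in set 1 from 16.7 ± 6.47 TPM in control BM (SD, n = 4) to 4.19 ± 1.12 TPM in DKO yBM (n = 6) and 1.93 ± 1.07 TPM in DKO BMT (n = 3). Its log2 differences were -1.70 (SE 0.35, adjusted p 0.0185 by limma) and -2.56 (SE 0.41, adjusted p 0.00869), and the first was lost without control 4 of set 1 (adjusted p 0.0537). Eno1, a glycolytic enzyme that also binds plasminogen at the cell surface, rose in DKO yBM of set 2 to 2739 ± 687.6 TPM from 847.3 ± 449.0 TPM in control BM, a log2 difference of 1.86 (SE 0.56, adjusted p 0.0259 by limma). That call was lost without control 1, DKO yBM 1 or DKO yBM 3 of set 2, with adjusted p of 0.149, 0.0617 and 0.0949, and with the leukocyte covariate.

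Anxa2 and S100a10, which form a cell-surface plasminogen receptor, were at 479.0 to 2151 TPM and 458.9 to 2216 TPM and were called in no comparison.

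The comparisons with control in which these and the following calls stand called 7.81% of all genes tested in DKO yBM, 2.35% in DKO BMT and 3.39% in DKO tumor of set 1. In set 2 they called 13.5% for SKO and 19.5% for DKO in yBM, 13.4% and 12% in BMT, and 11.6% and 17.2% in tumor.

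Of 25 other serpins, 11 were tested in each set. All 14 calls were lower and all were in set 2, with 3 genes behind them, and the list's median ran from -0.89 to -0.12, against -0.22 to 0.24 for all genes. Serpina3n, a secreted inhibitor of serine proteases, was at 54.5 ± 31.3 TPM in control BM of set 2 and at group means from 0.00712 TPM in SKO yBM to 3.24 TPM in SKO tumor. Its log2 differences ran from -4.29 to -5.64 (SE 0.83) with adjusted p from 7.5e-05 to 0.00141 by limma, in all 6 knockout groups. In set 1 it was at 28.6 ± 22.6 TPM in control BM and 5.91 to 23.8 TPM in the knockout groups, and was not called.

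Serpinb8, an intracellular serpin, was called lower in 5 groups of set 2, from 5.04 ± 1.44 TPM in control BM to between 0.547 and 1.57 TPM, and Serpinb6a, also intracellular, in 3 groups, from 626.6 ± 142.5 TPM to between 333.1 and 362.0 TPM. The call of Serpinb8 in DKO tumor was lost on leaving out any single library of that comparison, and the Serpinb6a calls on leaving out several. With the leukocyte level as a covariate 0 of the 14 calls were left, but in set 2 that level nearly coincides with control against knockout, so a loss there does not tell these apart. The log2 differences of Serpina3n were then -0.05 to -1.48 and those of Serpinb6a -0.51 to -0.62. Serpinh1, the collagen chaperone of the family, and Serping1, the inhibitor of complement C1, were abundant at means of 746.4 and 173.5 TPM over the 37 libraries and were not called against control.

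A list of genes around thrombin, a main target of Serpine2, had its calls mainly in set 1. The gene of thrombin itself (F2) was at most 0.0261 TPM in any library and was not tested. Of 13 listed genes, 8 were tested in set 1 and 9 in set 2, and 7 values were called lower and 1 higher. The list's median ran from -1.91 in DKO BMT of set 1 to 0.24 in DKO tumor of set 2. Pros1, the anticoagulant protein S, fell from 67.2 ± 13.9 TPM in control BM of set 1 (SD, n = 4) to 27.5 ± 5.64 TPM in DKO yBM, 18.4 ± 4.87 TPM in DKO BMT and 27.2 ± 8.92 TPM in DKO tumor. Its log2 differences were -1.26, -1.82 and -1.31 with adjusted p of 0.0143, 0.00781 and 0.0336 by limma. Without control 4 the DKO yBM and DKO tumor calls of Pros1 were lost (adjusted p 0.052 and 0.108), and the tumor call was also lost without control 3, DKO tumor 2 or DKO tumor 3 (0.0502 to 0.11).

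Gas6, a ligand of the TAM receptors related to protein S, was called lower in DKO yBM (-2.24, adjusted p 0.0227 by limma) and DKO BMT (-2.71, adjusted p 0.0357) of set 1. Thbd, the thrombin cofactor thrombomodulin, was called lower in DKO yBM (-1.69, adjusted p 0.0448 by limma) and F2r, the main thrombin receptor, in DKO BMT (-3.38, adjusted p 0.0411 by limma) of set 1. F2rl1, the related receptor for trypsin-like proteases, was called higher in DKO tumor of set 2 but was at 1.41 ± 0.584 TPM there. F3, tissue factor, at a mean of 39.7 TPM over the 37 libraries, was not called. Leaving out control 4 of set 1 reduced the 8 calls to 2, and leaving out control 2 or DKO yBM 5 of that set to 4. The calls of Gas6, Thbd, F2r and F2rl1 were each lost on leaving out any of 3 or more single libraries.

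Of 6 receptors proposed for Serpinf1, all were tested, with 14 calls higher and 18 lower over the 9 comparisons and list medians from -1.14 to -0.03. Rpsa, a ribosomal protein that also serves as a laminin receptor, was called higher in all 9 groups, by 0.82 to 1.72 on the log2 scale. In set 1 its calls were fragile, being lost on leaving out any of the 10 libraries in DKO yBM, 6 of 7 in DKO BMT and 5 of 7 in DKO tumor, and in SKO tumor of set 2 on leaving out 3 of 6. Atp5b, a subunit of ATP synthase, was called higher in 5 groups of set 2, a call lost on leaving out 5 of 6 libraries in SKO yBM and 2 or 3 of 6 in both BMT groups and in DKO tumor. Plxdc1, a transmembrane receptor of tumor endothelium, was called lower in all 6 groups of set 2, from 13.8 TPM in control BM, and its relative Plxdc2 in all 3 groups of set 1 and 3 of set 2. The set 2 calls of Plxdc2 were lost on leaving out 3 of 6 libraries in SKO BMT, 5 of 6 in DKO BMT and 6 of 6 in DKO tumor, and those of set 1 on leaving out 1 of 10 in DKO yBM and 2 of 7 in DKO tumor. Pnpla2 was called lower in all groups of set 2 but DKO BMT, from 40.4 TPM in control BM to between 7.27 and 13.3 TPM. In SKO BMT that call was lost on leaving out 5 of 6 libraries. Lrp6 was called lower in DKO yBM of set 1 only, a call lost on leaving out 2 of 10. With the leukocyte level as a covariate the list had 5 calls in all, which need not be among these 32. Between knockout groups, ages and the contrasts of DKO minus SKO no gene of these 4 lists was called by limma. Before adjustment, 22 values of the plasmin system, 8 of the other serpins, 15 of the thrombin list and 11 of the Serpinf1 receptors were under 0.05. These counts run over all tested genes of a list in 12 contrasts of groups, 1 of ages and 3 of DKO minus SKO. They are given without the share of all genes under 0.05, so nothing about the lists is read from them.

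The genes whose levels followed each of the 5 most closely were found by Pearson's r over the 37 libraries, on log2(TPM + 1) less the mean of the set. For Serpine2 they were Rai2 (0.90), Rnf169 (0.87) and Pla2g15 (0.86). For Plau they were Ywhah (0.80), Csk (0.80) and Efnb1 (0.78), and for Plat Dnm1 (0.83), Maged2 (0.76) and Fbln1 (0.76). For Plaur they were Pvr (0.80), Msn (0.77) and Txnrd1 (0.77), and for Serpinf1 Lama4 (0.87), Ahdc1 (0.86) and Ephb3 (0.84). These are the highest of many values, given without a test, and the libraries share their groups and their leukocyte content.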

How the data were processed

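RNA-seq was measured in 37 libraries of cultured mouse BM and tumor cells. The authors trimmed reads with Trim Galore (0.6.1 in the submitters' processing notes), checked them with FastQC and quantified them with Salmon, and the processing notes name the build mm39. The authors deposited TPM values per gene, which keep no read depth, so no interval for counting error can be given. Symbols were taken from mouse gene tables (48246 of 51123 rows matched), and promoters from RefSeq on GRCm38.p6, a build other than that of the reads.

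The members and gene lists were chosen with earlier results of these data known. Genes at 1 TPM or more in at least 3 libraries of a set were tested (14404 in set 1 and 14458 in set 2). Each set was fitted separately on log2(TPM + 1), which understates changes of low genes, with limma 3.58.1 in R 4.3.3, all groups of the set in the fit, a trended prior and Benjamini-Hochberg adjustment over all tested genes at 0.05. Contrasts with one control share its libraries. Named genes were the 5 members, Trp53 and Wwox, the 3 genes of highest mean TPM in each list, genes of the plasmin, serpin and thrombin lists called in 3 or more contrasts, and the 3 genes most like each member. Plg, F2, Hgf, Thbd, F2rl1, Plxdc1, Pnpla2, Lrp6 and the osteoblast markers below the 3 of highest mean TPM were named after their values were seen. Values of 1 listed gene are not reported here. For 3 of the 37 columns, the set 2 controls, the match was to the group and not to a numbered library. For set 2 no source used here gives the number of mice, so its p-values measure the spread between libraries, which may be technical. The highest correlation between any pair of libraries was 0.972, and none were treated as duplicates. The fit was tested on simulated data.

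Alternatives were a pseudocount of 0.1, no filter, median-ratio scaling, quantile normalization, TPM without mitochondrial transcripts, only the compared groups, a prior without a trend, the leukocyte level as a covariate, a replicate block and leaving out each library. Leaving out libraries whose Wwox or Trp53 went against the label was added after seeing the data. Same-numbered libraries of DKO BMT and SKO BMT deviated together from their group means (r 0.29, 0.29 and 0.38), and those of DKO tumor and DKO BMT of set 1, called paired in one place and counted as separate mice in another, did not in every pair (0.07, 0.28 and -0.09).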

Additional observations from a re-analysis of the deposited data

Results flagged for a closer look

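Of the 10 groups of 4 or 6 libraries examined (5 genes in control BM and DKO yBM of set 1), 2 had a library set apart from the rest on the log2 scale. Chance alone sets such a library apart in about 1 of 20 groups. Serpine2 in control BM 2 of set 1 was at 68.9 TPM, below the other 3 control libraries at 282 to 368 TPM. Plau in DKO yBM 4 of set 1 was at 69.3 TPM, above the other 5 libraries at 40.05 to 48.2 TPM.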

How the results depend on the processing

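Serpine2 was lower than control in each group and alternative that gave a value, except for DKO tumor of set 2 with the leukocyte covariate, where it was 0.24. DKO tumor of set 2 gave no value without libraries whose Wwox went against the label, since all 3 were removed. In set 2 the covariate nearly coincides with control against knockout, so its adjusted values extrapolate. That covariate gave -1.30 in DKO tumor of set 1 and -0.78 and -1.05 for SKO and DKO in yBM, -0.51 and -0.60 in BMT and -0.69 in SKO tumor of set 2, and 13 calls in the thrombin list, 5 for the Serpinf1 receptors and 0 for the other serpins. It also reversed Plxdc2 in SKO BMT (0.57), DKO BMT (1.22) and DKO tumor (2.27), Serpinb8 in SKO tumor (0.005) and DKO tumor (0.39), and Rpsa in SKO tumor (-0.0591). Without libraries whose Wwox went against the label, Serpine2 in SKO BMT was -1.999 and the calls were 1 for the plasmin system, 1 for thrombin and 18 for the Serpinf1 receptors. The plasmin system had 9 calls under median-ratio scaling, 5 without mitochondrial transcripts and 9 with only the compared groups. The thrombin list had 13 calls under median-ratio scaling and under quantile normalization, 12 with only the compared groups, 4 without a filter and 4 without the libraries whose Trp53 went against the label. Leaving out single libraries gave 2 to 8 calls for the plasmin system (8 without control 2 and 5 without DKO tumor 1 of set 1, 7 and 6 without SKO tumor 2 and 1 of set 2), 2 to 12 for thrombin (2 without control 4, 4 without control 2 or DKO yBM 5, 5 without control 1, DKO yBM 1, DKO yBM 6 or DKO BMT 2 of set 1), 10 to 20 for the other serpins and 24 to 34 for the Serpinf1 receptors. The members called between knockout groups of set 1 were 0 to 1 on leaving out single libraries. With the replicate block, 0 members were called in set 1 and 0 in set 2, the same as without it, and Plaur in DKO BMT against SKO BMT had an adjusted p of 1 in both fits. Depth is unknown, and with 3 libraries a group the intervals of Serpine2 differences between knockout groups of set 2 span more than 5 log2 units.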
